A study of Homo sapiens with 24 samples.

Results

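The genes described here are 47 human genes of mitosis: motor proteins of the kinesin family that work on the spindle, protein kinases that drive and order mitosis, subunits of condensin, the genes of cytokinesis, and their close partners. They were listed by name, and each was followed through the brightest probe carrying its symbol that had a detection p-value under 0.01 on at least 3 of 24 arrays. A probe was present for 46 of the 47, KIF18B having none. NCAPH, the kleisin subunit of condensin I, had a probe that was detected on 0 arrays. The remaining 45 were measured, among 10345 genes tested in all, and 42 of them were detected on all 24 arrays.

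The study used LNCaP, a human prostate cancer cell line grown from a lymph node metastasis, and its title ties protein glycosylation to the stability of the transcription factor c-MYC. Cells received ST045849, an inhibitor of the O-GlcNAc transferase OGT, or its vehicle, or else were transfected with siRNA directed at OGT (siOGT) or with scrambled siRNA, and RNA was collected after 12 or 24 h. Each of the 8 groups held 3 arrays, which the design calls biological replicates. Cells were plated straight onto the drug, the vehicle or the siRNA. The dose of ST045849 and the sequence of the siRNA were not given in the sources used here, and all groups share the 1 cell line.

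In mitosis the duplicated chromosomes are compacted by condensin, untangled by topoisomerase II, captured by a spindle of microtubules and pulled apart, after which an actin and myosin ring divides the cell. Aurora and Polo-like kinases order these steps, and kinesins slide, shorten or carry cargo along the microtubules. Most of these genes are transcribed late in the cell cycle, when complexes built around MuvB, with B-MYB and FOXM1, act at a promoter element called the CHR (cell cycle genes homology region), often with NF-Y bound to nearby CCAAT boxes.

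Promoter letters are shown first, because the members moved together and their promoters are known for these elements. RefSeq windows on GRCh38.p14, from 250 bases before to 50 bases after a transcription start, were held for 40 of the 47 members, of which 8 had several windows. The CHR was searched as TTTGAA or TTCGAA, the CCAAT box as CCAAT, and an E2F-type site, which is typical of genes of DNA replication, as TTTCCCGC, TTTCGCGC, TTTGCCGC or TTTGGCGC, each on both strands. Letters of different motifs overlapped in 2 of the 53 member windows. The CHR letters stood in at least 1 window of 32 of the 40 members, against 19.5% of 27305 genes. CCAAT letters stood in 30 of the 40, against 39.7% of all genes, and E2F letters in 2 of the 40 (KIF15 and NUSAP1), against 3.99%. Counted by window, 35 of 53 held the CHR letters, against 16.4% of all windows. Of 30 genes of DNA replication with a window, 2 held the CHR letters, 18 the CCAAT letters and 18 the E2F letters. Of 33 other mitotic genes with a window, such as checkpoint and kinetochore genes, 24 held the CHR letters, 24 the CCAAT letters and 3 the E2F letters. The CHR and CCAAT letters were thus not particular to the members. Such matches are descriptions of letters and not bound sites.

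The 120 bases before the first start listed are given for the member of smallest p with ST045849 at 24 h in each of 5 role groups, 5′ to 3′ on the gene's own strand, with CHR and CCAAT letters (or their reverse complements, TTCAAA and ATTGG) in capitals.
KIFC1 (chr6:33391703-33391822, plus strand): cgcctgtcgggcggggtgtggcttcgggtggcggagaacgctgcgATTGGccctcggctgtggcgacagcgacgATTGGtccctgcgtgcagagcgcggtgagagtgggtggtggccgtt
MELK (chr9:36572775-36572894, plus strand): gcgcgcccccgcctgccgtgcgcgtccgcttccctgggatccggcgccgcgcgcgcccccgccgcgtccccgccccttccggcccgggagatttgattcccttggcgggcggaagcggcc
TACC3 (chr4:1720511-1720630, plus strand): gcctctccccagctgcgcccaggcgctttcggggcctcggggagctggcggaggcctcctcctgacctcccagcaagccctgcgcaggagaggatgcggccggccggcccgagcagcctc
ANLN (chr7:36389742-36389861, plus strand): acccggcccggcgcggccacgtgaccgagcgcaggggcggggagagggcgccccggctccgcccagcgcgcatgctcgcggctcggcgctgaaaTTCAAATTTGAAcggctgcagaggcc
NCAPG (chr4:17810859-17810978, plus strand): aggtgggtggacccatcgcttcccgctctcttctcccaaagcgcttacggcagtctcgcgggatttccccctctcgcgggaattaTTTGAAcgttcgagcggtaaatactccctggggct
ANLN and NCAPG carry CHR letters close to the start, and in ANLN a reverse and a forward copy touch. KIFC1 shows a pair of CCAAT letters in reverse here and its CHR letters just past the start. MELK and TACC3 hold neither in their windows.

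The same stretch follows for the members of largest p at 24 h in 6 role groups, added after the values were seen, since several of them are the genes that did not pass the test.
KIF4A (chrX:70289984-70290103, plus strand): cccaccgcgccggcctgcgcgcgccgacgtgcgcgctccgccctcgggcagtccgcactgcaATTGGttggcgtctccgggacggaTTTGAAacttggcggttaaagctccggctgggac
PLK1 (chr16:23678769-23678888, plus strand): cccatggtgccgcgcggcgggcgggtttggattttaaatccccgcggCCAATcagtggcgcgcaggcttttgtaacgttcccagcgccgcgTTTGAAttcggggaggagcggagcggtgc
INCENP (chr11:62123891-62124010, plus strand): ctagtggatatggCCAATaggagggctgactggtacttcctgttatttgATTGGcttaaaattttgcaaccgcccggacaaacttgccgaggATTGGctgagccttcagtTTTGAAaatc
CKAP5 (chr11:46846281-46846400, minus strand): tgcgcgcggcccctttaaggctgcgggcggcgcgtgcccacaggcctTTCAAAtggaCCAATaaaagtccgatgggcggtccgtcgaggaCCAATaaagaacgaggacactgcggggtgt
TOP2A (chr17:40417897-40418016, minus strand): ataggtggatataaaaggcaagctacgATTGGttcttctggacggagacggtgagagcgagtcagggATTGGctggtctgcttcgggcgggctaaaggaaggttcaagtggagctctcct
CDC25C (chr5:138338356-138338475, minus strand): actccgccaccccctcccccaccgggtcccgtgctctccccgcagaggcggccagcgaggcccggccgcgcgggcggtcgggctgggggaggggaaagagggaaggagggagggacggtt
PLK1 and KIF4A hold CHR and CCAAT letters in the usual order, and INCENP holds several CCAAT copies before a CHR. CKAP5 holds both as well. The CDC25C window listed first has neither in this stretch, while others of its 4 windows hold both TTTGAA and CCAAT letters. Members with and without the CHR letters fell with ST045849. PLK1, CKAP5, CDC25C and MKI67, which did not pass the test at 24 h, all hold them in a window. So do most members, 32 of the 40 with a window. Whether the letters bear on the changes was not tested.

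The arrays were alike in brightness, with raw median intensities of 101.5 to 126.5 and 13993 to 16246 probes detected per array. Markers of luminal prostate cells, 9 in number and among them KLK3, KLK2 and KRT8, were detected on all 24 arrays. Of 16 markers of basal, stromal, immune, endothelial and neuroendocrine cells, 15 had a probe, 11 were detected on 0 arrays, INSM1 on 1, and VIM, VWF and ENO2 on all 24. The summed log2 level of those 3 lay between 19.84 and 20.76 on the vehicle arrays and between 20.73 and 21.99 on the ST045849 arrays at 24 h, none of the 3 passed the test, and their part in the results was not tested. OGT itself was lower with siOGT by 1.77 ± 0.16 (log2, SE, mean of both times, limma, adjusted p = 3.77e-06). The knockdown was uneven: OGT stood at 7.32, 7.55 and 6.71 with siOGT against 8.76, 8.95 and 8.99 with scrambled siRNA at 12 h. At 24 h it stood at 6.76, 7.82 and 6.60 against 8.96, 8.61 and 9.10, so replicate 2 was lowered least. With ST045849 it stood at 9.39, 9.45 and 9.55 against 8.78, 9.17 and 9.01 with vehicle at 12 h.

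Some arrays stood apart within their groups. The first principal component of all genes, with 34.2% of the variance, split the arrays of every treatment the same way: replicate 3 at 12 h and replicates 1 and 3 at 24 h on the one side, and the other 3 on the other. The sides were cut at the widest gap among the vehicle arrays, and other arrays took the side of their time and replicate number. On this component the sides did not overlap in any treatment, with or without the listed genes. Slide or hybridization day was not given in the sources used here. The mean normalized log2 intensity of the 45 members was 8.58, 8.41 and 8.93 on the vehicle arrays (replicates 1 to 3) and 8.30, 8.17 and 7.81 on the ST045849 arrays at 12 h. At 24 h it was 8.91, 8.48 and 8.89 with vehicle and 7.70, 8.25 and 7.60 with ST045849. All 3 ST045849 arrays lay below all 3 vehicle arrays at each time, but replicates 1 and 2 at 12 h and replicate 2 at 24 h differed least. The arrays on the first side were therefore the highest with vehicle and the lowest with ST045849. With siOGT, OGT itself stood at 6.71, 6.76 and 6.60 on the first side and at 7.32, 7.55 and 7.82 on the other. The knockdown was thus deeper on the first side. What sets the sides apart was not tested. The split crosses the labelled times: in every treatment replicate 3 at 12 h lay with the 24 h replicates 1 and 3, and replicate 2 at 24 h with the 12 h replicates 1 and 2. Whether the time labels of these arrays are right was not tested, so every 12 h and 24 h value here rests on the labels as deposited.

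Set side by side by replicate number, which was not taken to pair the cultures, the median member was lower with ST045849 by 0.29, 0.27 and 1.17 at 12 h, in log2 units for replicates 1, 2 and 3, where 41, 40 and 45 of the 45 were lower. At 24 h it was lower by 1.24, 0.25 and 1.35, with 45, 40 and 45 lower. A drop to 50% or less of vehicle was seen for 33 members in replicate 3 at 12 h, for 35 in replicate 1 and 33 in replicate 3 at 24 h, and for 0 in the other 3. The map of all members on all arrays shows this unevenness across genes of every role.

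**Figure D1:**
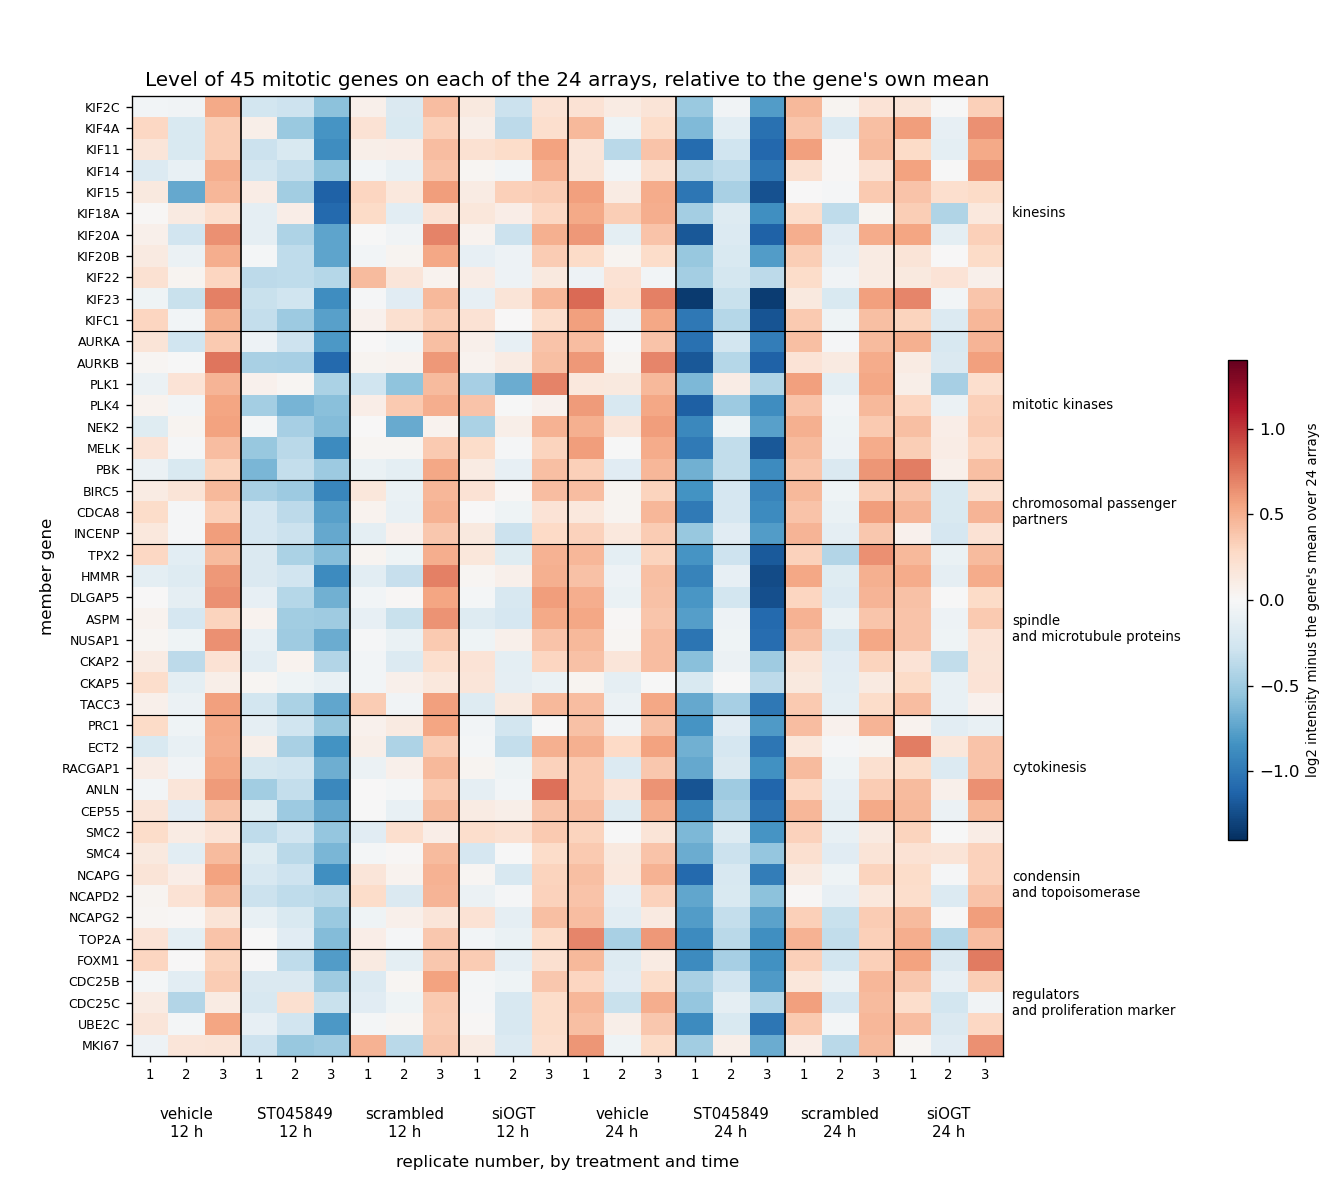
Each row is 1 of the 45 measured genes, grouped by role, and each column 1 array, grouped by treatment and time; colour is the log2 intensity minus that gene's mean over the 24 arrays. The ST045849 columns are on average the bluest at both times, most deeply in replicate 3 at 12 h and in replicates 1 and 3 at 24 h. The siOGT columns look like the scrambled columns. Within each vehicle, scrambled and siOGT group, replicate 2 is on average the lowest column.

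The mitotic genes were lower with ST045849 in every role group. Against vehicle at 24 h, 41 of the 45 measured members fell and 0 rose (limma over all 10345 genes, Benjamini-Hochberg adjusted p under 0.05), where 10.7% of all genes fell. The median member was lower by 0.93 in log2 units while the median of all genes was 0.03, and single members ranged from -1.57 (KIF23) to -0.17 (CKAP5). At 12 h 12 of the 45 fell and 0 rose, where 5.28% of all genes fell, and the estimate was below 0 for all 45, with a median of -0.56 against 0.0026 for all genes. All 3 treated arrays lay below all 3 vehicle arrays for 40 members at 24 h, against 17.5% of all genes, and for 29 at 12 h, against 14.8%. In RNA from whole cultures, fewer cells in mitosis and less of these RNAs per cell cannot be told apart.

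Scaling the arrays by their medians, in place of quantile normalization, gave 43 members lower at 24 h, but it moved the median of all genes to -0.14, with the median member at -1.13, and took the share of lower calls among all calls from 44.1% to 81.0%. The 12 h count rested on few arrays: it was 1 without ST045849 replicate 3, 1 without vehicle replicate 3 and 7 without ST045849 replicate 2. It was 41 when the array split and its effect in each treatment were put in the model. That split was drawn from these same values, so this fit is no independent check. In it the 12 h change is taken midway between the sides, with the size of the split shared by both times, so it is not the main 12 h quantity. The 24 h count was 26 without ST045849 replicate 3.

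**Figure D2:**
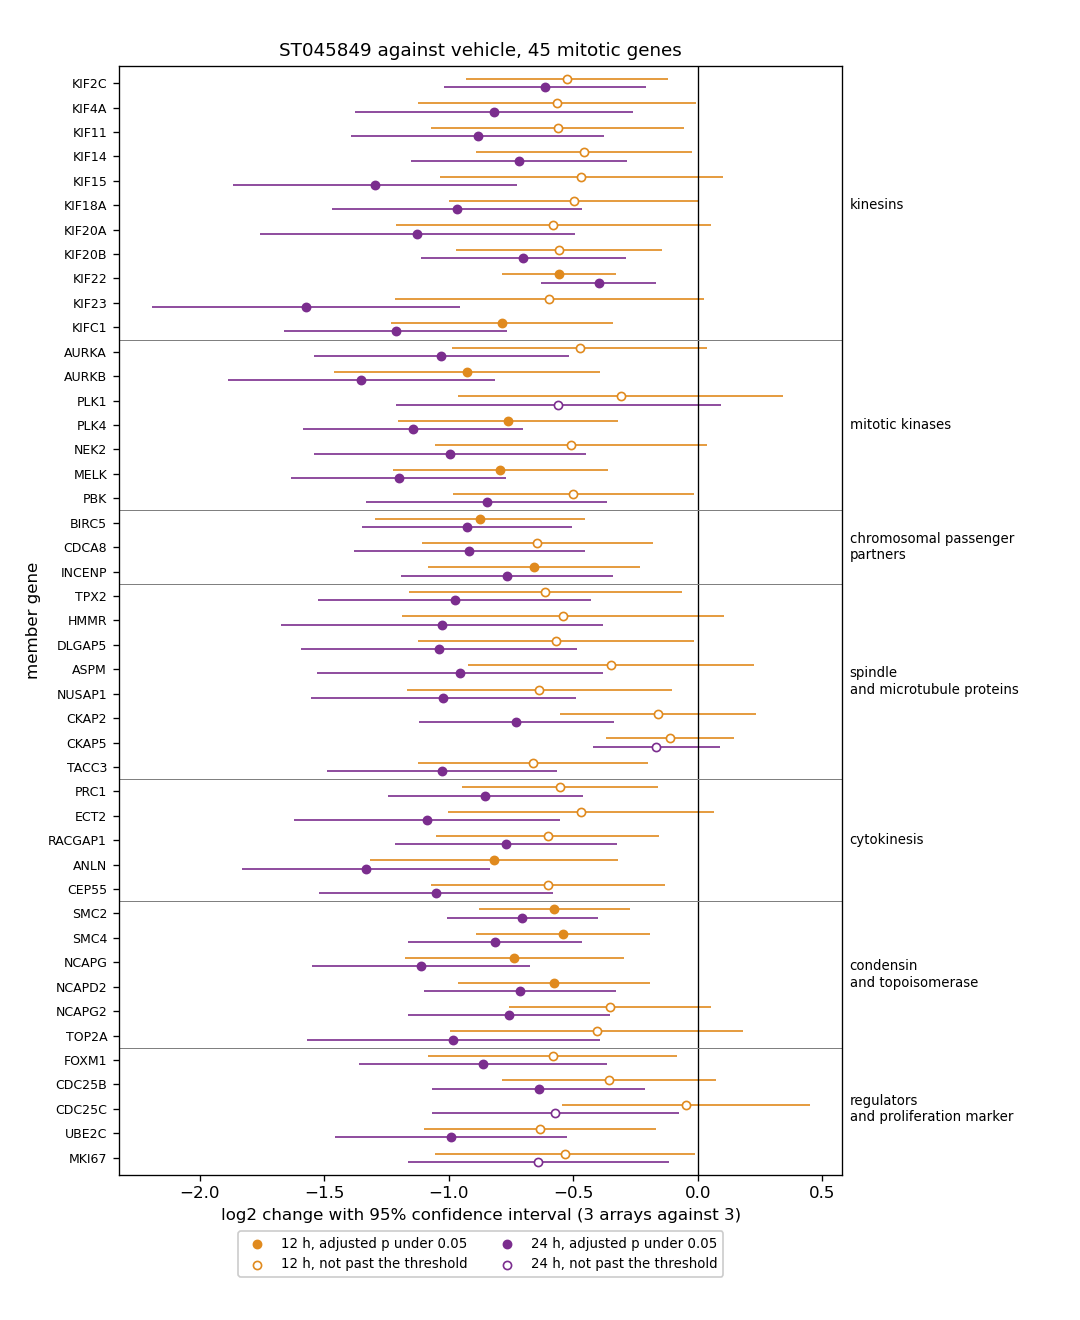
Log2 change of each measured member with ST045849 against vehicle (3 arrays against 3), with its 95% confidence interval, at 12 h (orange) and 24 h (purple); filled points have an adjusted p under 0.05. All 45 points lie left of 0 at both times, 12 are filled at 12 h and 41 at 24 h.

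All 11 measured kinesins fell at 24 h, by 0.40 (KIF22) to 1.57 (KIF23) in log2 units, and KIF22 and KIFC1 had fallen by 12 h. KIF23, the motor of the centralspindlin complex that builds the midbody, stood at 7.81, 7.24 and 7.72 on the vehicle arrays and at 5.67, 6.70 and 5.68 on the ST045849 arrays at 24 h. It was 2.98-fold lower (log2 change -1.57 ± 0.30, SE, adjusted p = 0.00077), with no overlap of the groups. At 12 h, with 6.95, 6.70 and 7.72 against 6.70, 6.73 and 6.14, the groups overlapped (-0.60 ± 0.30, adjusted p = 0.216).

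KIFC1, a minus-end motor that bundles extra centrosomes into a bipolar spindle, had the smallest p of the kinesins at 24 h. It stood at 9.27, 8.61 and 9.24 with vehicle and at 7.70, 8.29 and 7.49 with ST045849, a 2.32-fold drop (-1.21 ± 0.21, adjusted p = 0.000435). Every treated array was below every vehicle array, as at 12 h, when 8.99, 8.65 and 9.19 stood against 8.36, 8.19 and 7.93 (-0.79 ± 0.21, adjusted p = 0.0221). KIF4A, a chromosome-bound motor that shapes the central spindle, had the largest p of this group: 7.65, 7.13 and 7.45 with vehicle against 6.57, 7.05 and 6.16 with ST045849 at 24 h (-0.82 ± 0.27, adjusted p = 0.0309). Its replicate 2 with ST045849 came close to the lowest vehicle array. At 12 h KIF4A did not pass the test (-0.56 ± 0.27, adjusted p = 0.191), and its array values overlapped.

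KIF22, a chromosome arm motor, was steady across arrays, at 10.92, 10.74 and 11.005 with vehicle and 10.34, 10.35 and 10.31 with ST045849 at 12 h. Its change at 12 h had the smallest p of all members (-0.56 ± 0.11, adjusted p = 0.00266), and at 24 h, with 10.64, 10.90 and 10.67 against 10.22, 10.46 and 10.34, it was -0.40. At 24 h its replicate 2 was the highest array with vehicle and with ST045849. The other kinesins at 24 h were KIF15, a motor that holds the spindle poles apart beside KIF11, at -1.30 with its probe detected on 1 of 3 ST045849 arrays, KIF20A, which carries the passenger complex to the midzone, at -1.13, and KIF11, the motor that separates the poles, at -0.88. KIF14, a midbody motor, was at -0.72, KIF20B at -0.70 and KIF2C, which takes microtubules apart at kinetochores, at -0.62.

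KIF18A, which limits chromosome movement at the metaphase plate, was near the detection limit and was above it on 16 of 24 arrays. At 24 h its probe was detected on all 3 vehicle arrays (6.05, 5.86 and 6.03) and on 0 of 3 ST045849 arrays (5.05, 5.34 and 4.66). It was at least 1.45-fold lower, taking for each ST045849 array the lowest signal of a detected probe or the probe's own, whichever was higher (adjusted p of the fit 0.0062).

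Of the 7 mitotic kinases, 6 fell at 24 h and 3 (AURKB, PLK4 and MELK) at 12 h. MELK, a kinase of proliferating cells, had the smallest p of all members at 24 h. It stood at 10.28, 9.69 and 10.21 with vehicle and at 8.70, 9.35 and 8.51 with ST045849, a 2.30-fold drop (-1.20 ± 0.21, adjusted p = 0.000359). The groups did not overlap, nor did they at 12 h with 9.89, 9.68 and 10.12 against 9.17, 9.32 and 8.82 (-0.79 ± 0.21, adjusted p = 0.0174). AURKB, the catalytic subunit of the chromosomal passenger complex, went from 9.20, 8.64 and 9.28 to 7.41, 8.19 and 7.46 at 24 h (-1.35 ± 0.26, adjusted p = 0.000801). PLK4, which licenses centriole copying, was at -1.14, AURKA, the kinase of the spindle poles, at -1.03, NEK2, which splits the centrosomes, at -0.99 and PBK at -0.85.

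PLK1, the Polo-like kinase needed from mitotic entry to cytokinesis, was the kinase that did not pass the test. Its levels were 6.47, 6.46 and 6.77 with vehicle and 5.70, 6.42 and 5.90 with ST045849 at 24 h (-0.56 ± 0.31, adjusted p = 0.207). The treated arrays were all below the vehicle arrays, by little for replicate 2. The probe was dim and spread widely in other groups too, at 5.86, 5.62 and 7.02 with siOGT at 12 h.

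The 3 partners of AURKB in the passenger complex all fell at 24 h, and BIRC5 and INCENP at 12 h. BIRC5 (survivin), which docks the complex at centromeres, stood at 9.68, 9.75 and 10.02 with vehicle and 9.11, 9.06 and 8.65 with ST045849 at 12 h (-0.88 ± 0.20, adjusted p = 0.00831). At 24 h it stood at 10.00, 9.60 and 9.88 against 8.73, 9.34 and 8.64 (-0.93 ± 0.20, adjusted p = 0.00233). No treated array reached a vehicle array at either time. INCENP, the scaffold of the complex, went from 7.52, 7.35 and 7.56 to 6.66, 7.04 and 6.41 at 24 h (-0.77 ± 0.20, adjusted p = 0.0093). CDCA8 (borealin) was at -0.92.

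Of 8 spindle and microtubule proteins, 7 fell at 24 h, and 0 had passed the test at 12 h. TACC3, which with clathrin and CKAP5 bridges kinetochore microtubules, had the smallest p, at 8.80, 8.29 and 8.90 with vehicle against 7.64, 7.90 and 7.36 with ST045849 (-1.03 ± 0.22, adjusted p = 0.00214). At 12 h its groups were also apart, 8.43, 8.28 and 8.93 against 8.11, 7.92 and 7.64, without passing the test (-0.66 ± 0.22, adjusted p = 0.0595). The others that fell at 24 h were DLGAP5, a microtubule bundler, at -1.04, HMMR at -1.03, NUSAP1, which binds spindle microtubules near chromosomes, at -1.02, TPX2, the activator of AURKA, at -0.98, ASPM, a protein of the spindle poles, at -0.96 and CKAP2 at -0.73.

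CKAP5 (ch-TOG), a microtubule polymerase that also works outside mitosis, was the exception. Its brightest probe gave 10.65, 10.49 and 10.61 with vehicle and 10.40, 10.61 and 10.24 with ST045849 at 24 h (-0.17 ± 0.12, adjusted p = 0.352). The groups overlapped, replicate 2 with ST045849 lying above a vehicle array, and at 12 h they overlapped as well (-0.11 ± 0.12, adjusted p = 0.619). A second CKAP5 probe gave -0.54 at 24 h, so the probes of this gene differ in size. Over the 16 members with several probes passing the filter, all 18 other probes were lower with ST045849 at 24 h. Sizes differed for other genes too: RACGAP1 was at -0.77 by its brightest probe and -1.37 by another, and UBE2C at -0.99 and -0.38.

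**Figure D3:**
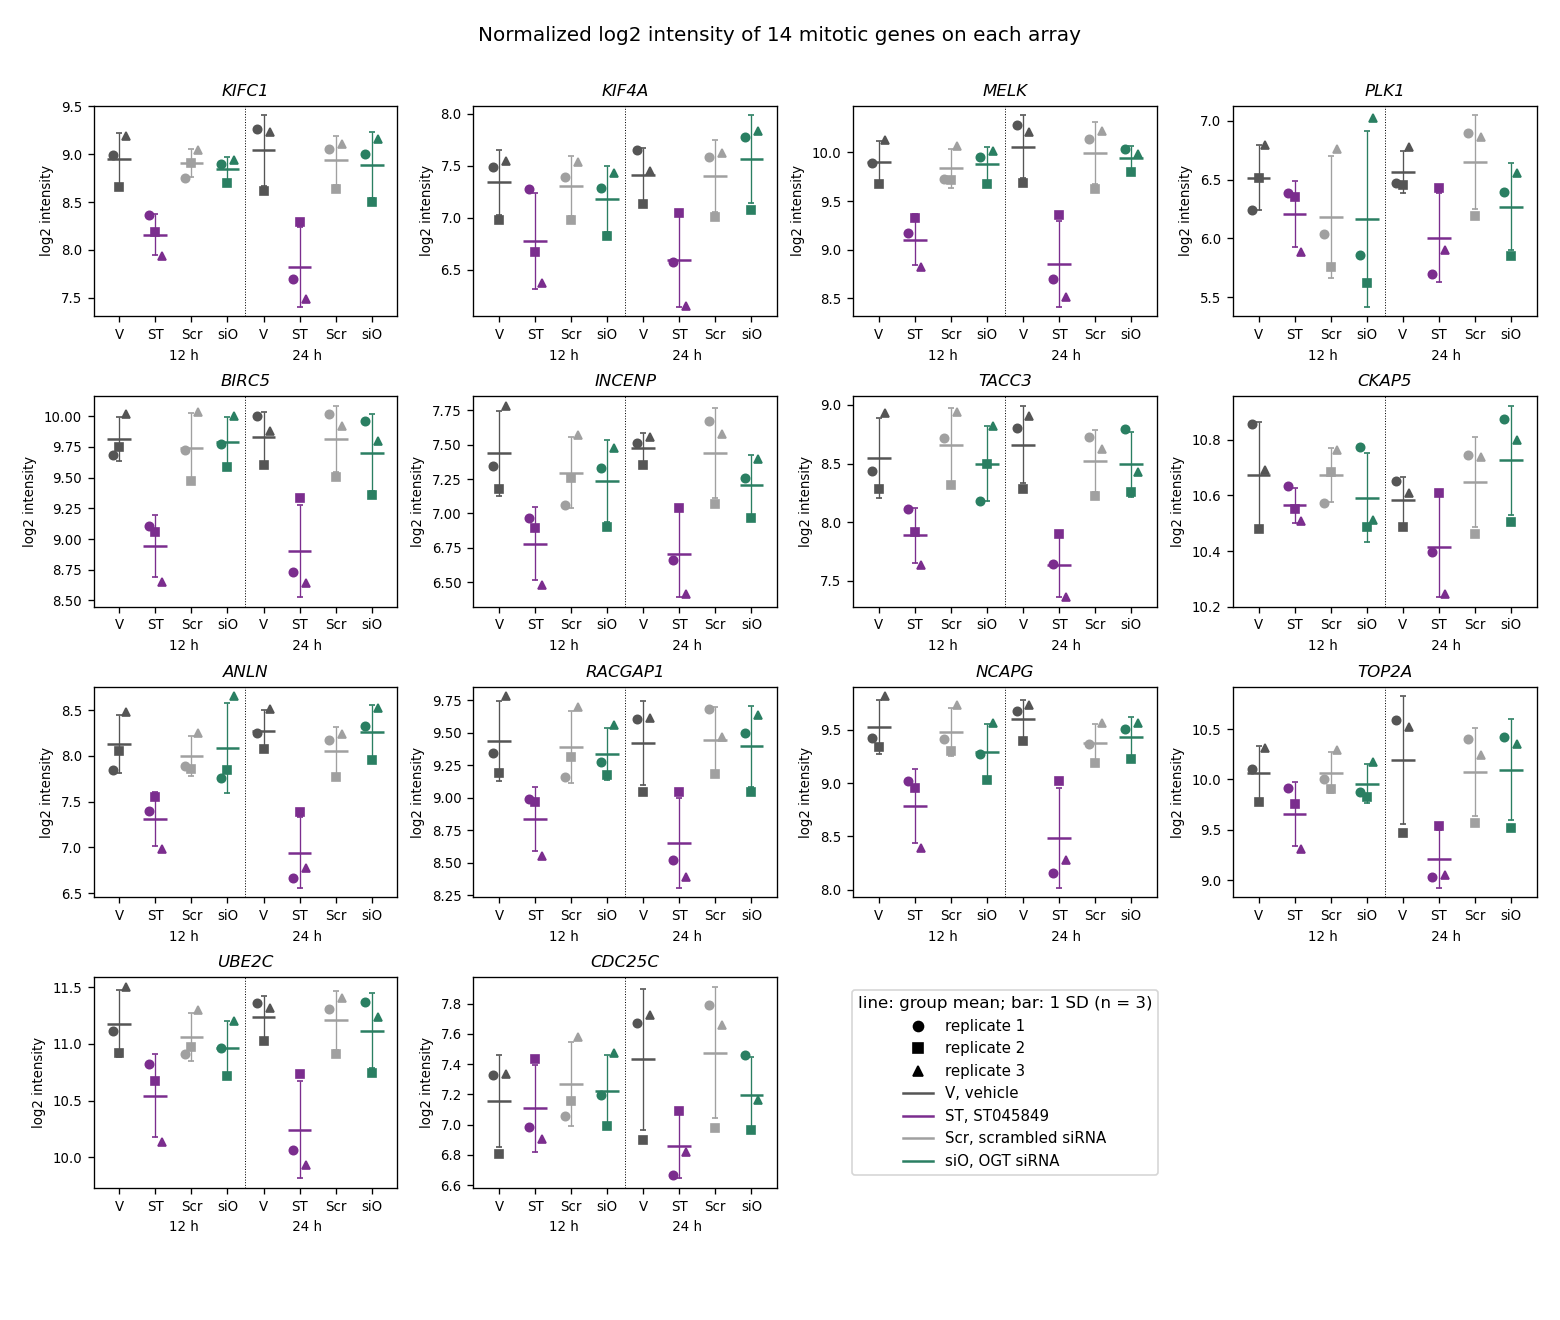
Normalized log2 intensity of 14 members, the ones of smallest and largest p with ST045849 at 24 h in each role group, on each array (circle, square and triangle for replicates 1, 2 and 3), with the group mean as a line and 1 SD as a bar (n = 3). With ST045849 at 24 h the square, replicate 2, is the highest of the 3 arrays in every panel, and CKAP5 is the panel whose groups differ least.

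All 5 cytokinesis genes fell at 24 h, and ANLN at 12 h. ANLN (anillin), which ties the actin and myosin ring to the membrane, stood at 8.25, 8.07 and 8.51 with vehicle and at 6.67, 7.38 and 6.77 with ST045849 at 24 h, a 2.52-fold drop (-1.33 ± 0.24, adjusted p = 0.000491). At 12 h its values were 7.85, 8.06 and 8.47 against 7.40, 7.55 and 6.98 (-0.82 ± 0.24, adjusted p = 0.0315). The groups were apart at both times. ECT2, the exchange factor that switches on RhoA at the cell equator, was at -1.09 at 24 h, CEP55, which brings the abscission machinery to the midbody, at -1.05 and PRC1, the bundler of midzone microtubules, at -0.85. RACGAP1, the partner of KIF23 in centralspindlin, went from 9.61, 9.04 and 9.61 to 8.52, 9.04 and 8.39 (-0.77 ± 0.21, adjusted p = 0.0124), and replicate 2 with ST045849 all but met the lowest vehicle array.

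The 5 measured condensin subunits and TOP2A fell at 24 h, and 4 of the subunits (SMC2, SMC4, NCAPG and NCAPD2) had fallen at 12 h. NCAPG, a HEAT-repeat subunit of condensin I, went from 9.67, 9.39 and 9.73 to 8.16, 9.02 and 8.28 at 24 h (-1.11 ± 0.21, adjusted p = 0.000774) and from 9.42, 9.34 and 9.81 to 9.02, 8.95 and 8.39 at 12 h (-0.74 ± 0.21, adjusted p = 0.0281). Neither pair of groups overlapped. The ATPase subunits SMC4 and SMC2, shared by both condensins, were at -0.81 and -0.71 at 24 h. SMC2 was even across arrays, at 8.14, 8.002 and 8.07 with vehicle and 7.53, 7.61 and 7.34 with ST045849 at 12 h (-0.58 ± 0.15, adjusted p = 0.0149). NCAPG2, which belongs to condensin II, was at -0.76 and NCAPD2 of condensin I at -0.71.

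TOP2A, the topoisomerase that untangles sister chromatids, passed the test at 24 h although its groups overlapped. It stood at 10.59, 9.47 and 10.52 with vehicle and 9.04, 9.54 and 9.06 with ST045849 (-0.98 ± 0.28, adjusted p = 0.0149). Vehicle replicate 2 lay just below ST045849 replicate 2, and the other vehicle arrays were far higher. At 12 h the change did not pass the test (-0.41 ± 0.28, adjusted p = 0.394).

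Among the regulators, UBE2C, FOXM1 and CDC25B fell at 24 h, CDC25C and MKI67 did not pass the test, and at 12 h 0 of the 5 passed it. UBE2C, the ubiquitin-conjugating enzyme of the anaphase-promoting complex, went from 11.36, 11.02 and 11.32 to 10.06, 10.73 and 9.93 at 24 h (-0.99 ± 0.22, adjusted p = 0.00299). Its groups were apart, as they were at 12 h with 11.12, 10.92 and 11.50 against 10.83, 10.67 and 10.13 (-0.63 ± 0.22, adjusted p = 0.0727). FOXM1, a transcription factor for many genes of this kind, was at -0.86, and CDC25B, a phosphatase that activates CDK1, at -0.64. CDC25C, another phosphatase of CDK1, stood at 7.67, 6.90 and 7.72 with vehicle and 6.67, 7.09 and 6.82 with ST045849 at 24 h (-0.57 ± 0.24, adjusted p = 0.087). The groups overlapped there, and at 12 h they lay on each other, with 7.33, 6.81 and 7.33 against 6.99, 7.44 and 6.90 (-0.05 ± 0.24, adjusted p = 0.925). These values are of the brightest CDC25C probe. Its other probes gave -0.24 and -0.40 at 12 h and -0.61 and -0.68 at 24 h, and were not tested.

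MKI67, the proliferation marker Ki-67, was detected on 12 of 24 arrays. Its values were 6.07, 5.39 and 5.72 with vehicle and 4.96, 5.53 and 4.76 with ST045849 at 24 h (-0.64 ± 0.25, adjusted p = 0.0689). The probe was too dim for a firmer statement.

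Genes around the members were read in the same fit. Of 38 other mitotic genes, which include checkpoint, kinetochore and cyclin genes, 34 fell and 0 rose at 24 h, and 7 fell at 12 h. FBXO5, the inhibitor of the anaphase-promoting complex, was at -1.43 ± 0.20 (adjusted p = 3.96e-05), and CDCA5 (sororin), which guards cohesion, at -1.20 ± 0.17 (adjusted p = 5.07e-05). Of 33 genes of DNA replication, 30 fell at 24 h and 27 at 12 h. MCM10, a factor for firing origins, was at -1.17 ± 0.14 at 12 h and -1.61 ± 0.14 at 24 h (adjusted p = 1.47e-05 and 1.08e-07). The list also counts CDC25A, a cell cycle phosphatase that opens S phase. CDC25A was at -1.29 ± 0.13 and -1.56 ± 0.13 (adjusted p = 2.60e-06 and 1.08e-07). Thus 27 of 33 replication genes but 12 of 45 members had passed the threshold at 12 h. Their median changes then were -0.80 and -0.56, and the difference between the lists was not tested.

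Lists related to the members by family or regulation were read next, and differences between lists were not tested. Of all 10345 genes, 1110 fell and 1406 rose at 24 h, and 546 fell and 593 rose at 12 h. The share that rose among the transport kinesins and the actomyosin genes was close to that of all genes at both times. Of 15 measured kinesins and partners of interphase transport, 0 fell and 2 rose at 24 h, KIFAP3 by 0.50 ± 0.11 (adjusted p = 0.00224) and KIFC2 by 0.57 ± 0.18 (adjusted p = 0.0217). Of 20 actomyosin, septin and abscission genes, 0 fell and 3 rose, with CHMP3 at 0.70 ± 0.12 (adjusted p = 0.000254) and TSG101 at 0.28 ± 0.08 (adjusted p = 0.017), both parts of the machinery that cuts the midbody and sorts membrane proteins. Of 10 genes of condensin II and cohesin, 3 fell and 1 rose, STAG1 of cohesin being at -0.57 ± 0.11 (adjusted p = 0.00081) and the cohesin loader NIPBL at 0.44 ± 0.11 (adjusted p = 0.00634). Of 16 regulators of the MuvB, DREAM and E2F kind, 5 fell and 1 rose, with E2F2 at -1.06 ± 0.13 (adjusted p = 1.71e-05). LIN9, a core subunit of MuvB, was at -1.20 ± 0.18 (adjusted p = 0.000116), its probe detected on 2 of 3 ST045849 arrays. At 12 h the counts were 0 lower and 1 higher for the transport kinesins, 0 and 1 for the actomyosin genes, 2 and 0 for condensin II and cohesin, and 6 and 1 for the regulators.

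**Figure D4:**
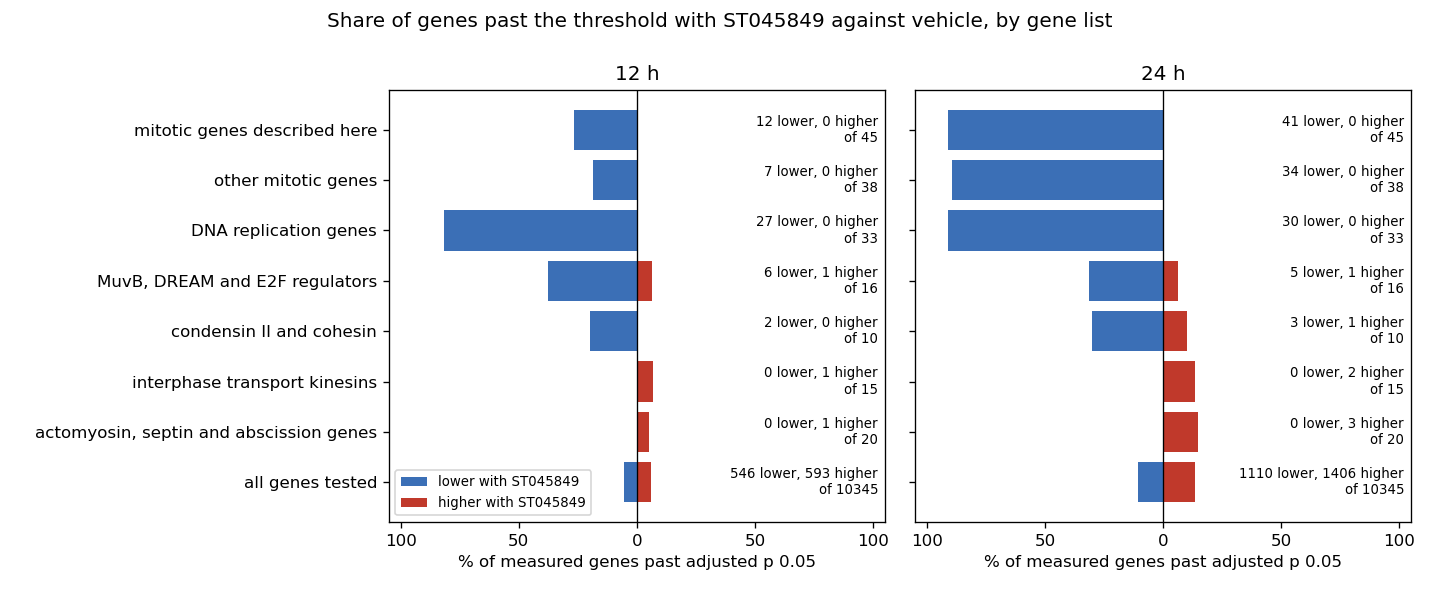
Bars give the percentage of measured genes of each list that passed an adjusted p of 0.05 with ST045849 against vehicle, lower to the left in blue and higher to the right in red, at 12 h and 24 h, with the counts at the right. At 24 h 41 of 45 members, 34 of 38 other mitotic genes and 30 of 33 replication genes are lower, while 0 of 15 interphase kinesins and 0 of 20 actomyosin, septin and abscission genes are.

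Knockdown of OGT moved no member past the test. With siOGT against the scrambled siRNA, 0 of the 45 members passed the test at 12 h, at 24 h or in the mean of both times, where 0.00967%, 0.126% and 0.193% of all genes did (limma). At an unadjusted p under 0.05 the counts were 0, 0 and 1. The median change was -0.04 at 12 h, 0.02 at 24 h and -0.01 in the mean, and single members at 24 h ran from -0.39 (PRC1) to 0.37 (ECT2). The mean of the 45 members was 8.53, 8.41 and 8.85 on the siOGT arrays and 8.53, 8.43 and 8.91 on the scrambled arrays at 12 h, and 8.85, 8.39 and 8.84 against 8.83, 8.37 and 8.86 at 24 h. These means overlapped at both times. By single member, the 3 siOGT arrays lay all on one side of the 3 scrambled arrays for 1 of 45 members at 12 h (PRC1, lower), where this held for 8.75% of all genes in either direction. At 24 h it held for 2 members (PRC1, lower, and ECT2, higher), against 16.7% of all genes.

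PRC1 had the smallest p with siOGT. It stood at 10.31, 10.09 and 10.35 with siOGT and 10.41, 10.48 and 10.90 with the scrambled siRNA at 12 h, and at 10.406, 10.20 and 10.26 against 10.79, 10.413 and 10.83 at 24 h. Its change in the mean of both times was -0.37 ± 0.13 (unadjusted p = 0.0121, adjusted p = 0.242). The adjusted p was 0.0226 when the array split, itself drawn from these same values, and its effect in each treatment were in the model. NCAPG2 (0.16 ± 0.14, adjusted p = 0.661) and SMC2 (0.12 ± 0.10, adjusted p = 0.668) came next.

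**Figure D5:**
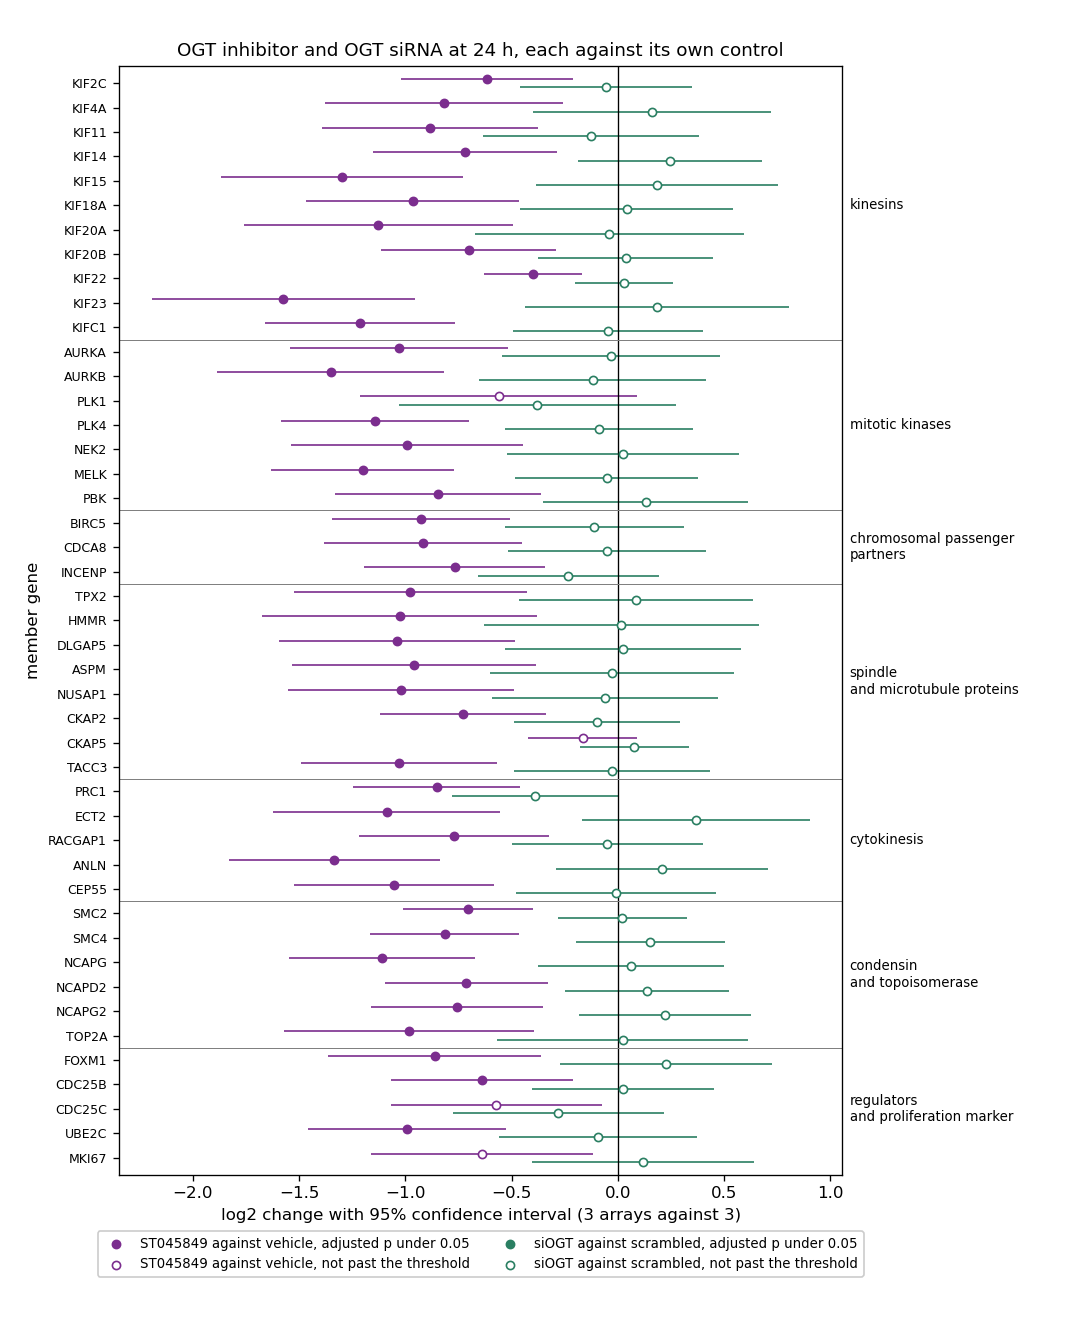
Log2 change of each measured member at 24 h with its 95% confidence interval, ST045849 against vehicle in purple and siOGT against scrambled siRNA in green (3 arrays against 3 each); filled points have an adjusted p under 0.05. The green points lie on both sides of 0, between -0.39 and 0.37, and 0 of them are filled, while 41 of the purple points are.

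The difference between the effects was tested directly, as the change with ST045849 minus the change with siOGT over both times, each against its own control. It was below 0 for all 45 members and passed the test for 31 of them, where 9.12% of all genes were lower. SMC2 (-0.76 ± 0.15, adjusted p = 0.00115), ANLN (-1.22 ± 0.24, adjusted p = 0.00134) and MELK (-0.99 ± 0.21, adjusted p = 0.00218) had the smallest p. The passing members by role were 8 of 11 kinesins, 6 of 7 kinases, 2 of 3 passenger partners, 4 of 8 spindle proteins, 4 of 5 cytokinesis genes, 5 of 6 condensin and topoisomerase genes and 2 of 5 regulators.

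Whether the effect of ST045849 grew between the times was asked by its change at 24 h minus that at 12 h. The estimate was below 0 for 44 of the 45, with a median of -0.37, but 0 members passed the test and 0% of all genes did (limma), with 3 members at an unadjusted p under 0.05. Those were KIF23 (-0.98 ± 0.42, adjusted p = 0.761), KIF15 (-0.83 ± 0.39, adjusted p = 0.763, detected on 1 of 3 ST045849 arrays at 24 h) and CKAP2 (-0.57 ± 0.27, adjusted p = 0.763). A difference between the times was therefore not shown for any member, and the contrast rests on time labels that the array split crosses. KIF22, at 0.16, was the member with an estimate above 0.

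No member passed the test between control groups. Scrambled siRNA against vehicle, which shares the vehicle arrays with the drug comparison, gave 0 of 45 members past the test and 0 at an unadjusted p under 0.05, where 0.155% of all genes passed (limma). The members of smallest p were KIF18A (-0.25 ± 0.17, adjusted p = 0.658), NEK2 (-0.25 ± 0.19, adjusted p = 0.680) and ECT2 (-0.23 ± 0.18, adjusted p = 0.713). From 12 to 24 h in the controls, 0 of 45 members and 0% of all genes passed, and 0 members had an unadjusted p under 0.05. NEK2 (0.38 ± 0.19, adjusted p = 0.880), CKAP2 (0.23 ± 0.13, adjusted p = 0.891) and KIF22 (-0.13 ± 0.08, adjusted p = 0.897) were first there.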

How the data were processed

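RNA of LNCaP cells was hybridized to Illumina arrays of 47323 probes. The deposited table holds non-normalized intensity and a detection p-value per probe and array. Per the submitters' processing notes, GenomeStudio 2011.1 was used, with its role unstated. A second table deposited by the authors holds processed intensity values, used as an alternative. Intensities were background-corrected, quantile-normalized and logged with neqc (offset 16) in limma 3.58.1 (R 4.3.3). The detection limit given in the results kept 17633 probes, the brightest standing for its gene. Symbols came from the platform annotation, which gives 30113 probes 1 symbol, 8 several and 17202 none.

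One fit of 8 group means over 24 arrays was moderated with eBayes, and p-values were adjusted (Benjamini-Hochberg) over 10345 genes with a threshold of 0.05. It was tested on simulated data with independent noise for each gene and array. The simulation held no array split, so it does not cover that feature of these arrays. An exact permutation test of 3 arrays against 3 cannot go below 0.1. The number of arrays limits the precision, and what the replicates share was not given in the sources used here.

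Members, gene lists and the choice of genes to name were made with earlier results of these data known. The naming rule gave every measured member's change at 24 h, array values for the members of smallest and largest p in each role group, the 3 members of smallest p in other comparisons, and 2 genes per other list. Values for KIF23, KIF22, AURKB, SMC2, KIF18A, MKI67 and PRC1 on arrays were added after seeing them. Same-numbered arrays did not all deviate together, by correlations of deviations from group means. These were -0.07 to 0.09 for ST045849 with vehicle. They were 0.05 to 0.27 for siOGT with scrambled and 0.03 to 0.24 for scrambled with vehicle, all positive but not all over 0.1. The array split ran in opposite directions with ST045849 and with vehicle, so the low correlations there cannot show that the numbers are unpaired. Numbers were not taken as pairs, and replicate blocks were among the alternatives. Alternatives covered background, scaling, filters, probes, blocks, array weights and left-out arrays.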

Additional observations from a re-analysis of the deposited data

Results flagged for a closer look

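The effects of the OGT inhibitor and of the OGT siRNA on the mitotic genes differed by a test of the difference itself. The change with ST045849 minus the change with siOGT, in the mean of both times, was lower for 31 of 45 members (limma, adjusted p under 0.05), where 9.12% of all genes were lower. SMC2 was at -0.76 ± 0.15 (log2, SE), ANLN at -1.22 ± 0.24 and MELK at -0.99 ± 0.21. The siRNA lowered OGT itself by 1.77 in log2 units in the mean of both times, unevenly across arrays. How far either treatment lowered OGT activity was not measured here. The cause was not tested.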

How the results depend on the processing

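Under 14 other settings the 24 h count of members lower with ST045849 stayed between 39 and 43 of those measured, and it was 41 with either replicate block. The 12 h count of 12 was 8 to 18 under 13 of them (13 with either replicate block) and 41 with the array split and its effect in each treatment, where all genes past the threshold went from 1139 to 1765. The split was drawn from these same values, so the fit that holds it is no independent check. At 12 h 472 genes passed with median scaling, 452 when each comparison was fitted on its own arrays, 486 without ST045849 replicate 3 and 498 without vehicle replicate 3. Leaving out 1 array gave 1 to 12 members at 12 h, 26 to 42 at 24 h and 21 to 39 of the main 31 for ST045849 minus siOGT. The replicate block changed no other member count but that of ST045849 minus siOGT (31 or 33). With siOGT in the mean of both times, 0 members became 1 (PRC1) with the array split and its effect in each treatment, and the 20 genes of all became 4 to 87 over the settings. The 13 genes of siOGT at 24 h became 0 to 18, and the 16 of scrambled against vehicle 3 to 33. Single changes near 0 turned sign: CDC25C with ST045849 at 12 h, by its brightest probe, was 0.0658 with array weights and -0.224 to 0.0541 with 1 array left out. With siOGT, median scaling gave 0.0371 for KIFC1, 0.0689 for MELK, 0.0462 for BIRC5, 0.0657 for CKAP5, 0.0259 for RACGAP1, 0.0104 for NCAPG and 0.0278 for TOP2A, the mean of probes gave 0.0194 for BIRC5, and array weights gave 0.00648 for CKAP5. With 1 array left out the siOGT change ran from -0.129 to 0.0423 for KIFC1, -0.0803 to 0.141 for KIF4A, -0.0963 to 0.0528 for MELK, -0.110 to 0.0541 for BIRC5, -0.0483 to 0.0538 for CKAP5, -0.116 to 0.0375 for RACGAP1 and -0.168 to 0.101 for TOP2A. The cause was not tested. KIF15, KIF18A and MKI67 were limited by signal near background.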
